A study of Mus musculus with 24 samples.

Results

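The circadian clock genes were examined in the terminal ileum of 24 mice. They are Arntl, Clock, Npas2, Per1, Per2, Per3, Cry1, Nr1d1, Nr1d2 and Dbp, 10 genes of the transcriptional clock loop taken as a list by name, and each was found by the gene symbol that annotates a probe set of the array. Where a gene had several probe sets, the brightest on average over the arrays was taken, except for Nr1d1, where the less bright of its pair of probe sets was used because it matches Nr1d1 transcripts alone. For 8 of the 10 genes a probe set of their own was found, among 18820 such genes in all. Nr1d1 and Dbp were measured only by probe sets that the annotation shares with a neighbouring gene, and they are therefore written Nr1d1/Thra and Dbp/Sphk2.

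All mice were C57BL/6OlaHsd males of 8 weeks on a low-fat D12450B diet, and they received a gavage once a day for 5 days. Groups of 4 conventional and 4 germ-free mice received water, 10 mg per day of short-chain β2→1-fructan, or 10 mg per day of long-chain β2→1-fructan, which gave 6 groups and 1 Affymetrix Mouse Gene 1.1 ST array per mouse. Conventional mice were specified pathogen-free animals bought from a supplier, whereas germ-free mice came from a breeding colony, so that colonization and the source of the animals cannot be told apart. For the germ-free mice the short-chain fructan was filtered and the long-chain fructan was irradiated, which degraded part of its longer chains. The hour of sampling and the light cycle were not given in the sources used here, and RNA levels of clock genes swing over the day.

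The clock is a loop of transcription factors found in most cells. ARNTL, also called BMAL1, pairs with CLOCK or with its relative NPAS2 and binds E-box motifs to switch on the Per and Cry genes, whose proteins return to the nucleus and repress the pair. The same pair switches on Nr1d1 and Nr1d2, which encode the heme-binding nuclear receptors REV-ERB alpha and beta. These bind ROR elements and repress Arntl, Clock, Npas2 and Cry1, while DBP is an output factor that binds D-box motifs, as in the Per genes. In the gut the clock is known for daily rhythms of absorption, motility and renewal of the epithelium, and its phase follows the time of feeding.

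Of the genes in the pairs described further on, the promoter windows that held a motif are shown here. Each runs from 250 bases before to 50 bases after a transcript start, 5′ to 3′ on the strand of the gene (RefSeq, GRCm38). Capitals mark the motif letters found: the ROR element core TAGGTCA in Arntl, the D-box TTANGTAA in Per3, the E-box CACGTG in Cry1, and the E-prime box CACGTT, read on the opposite strand, in Cry1 and Nr1d1.
Arntl, chr7:113207261-113207560, plus strand: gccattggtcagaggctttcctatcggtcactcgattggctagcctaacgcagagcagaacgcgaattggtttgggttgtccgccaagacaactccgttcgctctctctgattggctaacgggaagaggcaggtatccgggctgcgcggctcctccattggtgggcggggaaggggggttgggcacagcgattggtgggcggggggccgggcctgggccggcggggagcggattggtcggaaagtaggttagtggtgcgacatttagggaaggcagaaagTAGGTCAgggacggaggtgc
Per3, chr4:151044616-151044915, minus strand: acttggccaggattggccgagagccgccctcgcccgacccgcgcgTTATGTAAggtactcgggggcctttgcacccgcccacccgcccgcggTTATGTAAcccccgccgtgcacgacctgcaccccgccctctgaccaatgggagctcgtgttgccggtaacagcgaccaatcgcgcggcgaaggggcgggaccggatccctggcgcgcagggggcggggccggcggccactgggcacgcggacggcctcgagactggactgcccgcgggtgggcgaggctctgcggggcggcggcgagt
Cry1, chr10:85185005-85185304, minus strand: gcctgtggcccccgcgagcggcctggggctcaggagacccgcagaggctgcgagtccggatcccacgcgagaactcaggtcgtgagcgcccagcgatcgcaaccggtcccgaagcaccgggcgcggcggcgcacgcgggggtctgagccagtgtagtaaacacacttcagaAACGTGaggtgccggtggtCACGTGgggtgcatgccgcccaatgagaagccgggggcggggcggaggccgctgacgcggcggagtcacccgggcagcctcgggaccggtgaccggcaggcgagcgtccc
Nr1d1, chr11:98775328-98775627, minus strand: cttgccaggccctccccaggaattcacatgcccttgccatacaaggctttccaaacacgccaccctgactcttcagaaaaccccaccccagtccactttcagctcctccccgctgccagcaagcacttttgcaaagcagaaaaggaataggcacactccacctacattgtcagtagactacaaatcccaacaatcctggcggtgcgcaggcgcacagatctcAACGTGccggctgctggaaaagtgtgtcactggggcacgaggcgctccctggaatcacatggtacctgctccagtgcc

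Windows were at hand for 9 of the 10 genes, 13 windows in all, and none for Per2. Both strands were searched for the 4 motifs above and for the cAMP response element TGACGTCA. Apart from the windows shown, Per1 held an E-box 166 bases before a transcript start. The windows of Clock, Npas2, Nr1d2 and Dbp held none of these motifs, and neither did the other windows of Arntl and Per1. The ROR element core was found in Arntl only, and not in Cry1. In Per3 the D-boxes began 205 and 158 bases before the start, in Cry1 the E-box began 60 bases and the E-prime box 79 bases before it, in Nr1d1 the E-prime box began 28 bases before it, and in Arntl the ROR element core lay 30 bases after it. Over all 32851 windows of the RefSeq table, 7.15% held the E-box, 4.68% the E-prime box, 2.61% the ROR element core, 2.32% the D-box and 1.79% the cAMP response element. A match of letters is a description and not a bound site.

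The values are log2 expression from the robust multiarray average (RMA), a normalization that puts all arrays on 1 scale. They give differences of a probe set between mice, and levels of different genes were not compared. Array medians lay between 4.92 and 4.98, and arrays of the same group correlated at 0.979 to 0.990 over the 36 pairs. In limma, a gene was called changed when it differed by more than 1.3-fold with an unadjusted p under 0.01, the thresholds of the study, and p adjusted over all 18823 features (Benjamini-Hochberg) is given beside it. The study took ileum from each mouse, and the labels number the replicates of each group. The 4 arrays per group limit the precision, and an exact permutation test of 4 against 4 mice cannot give a two-sided p under 0.029. Any 2 groups that do not overlap give this lowest p. The share of all features whose groups do not overlap was not determined, so that such p values do not set a clock gene apart from other genes.

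**Figure D1:**
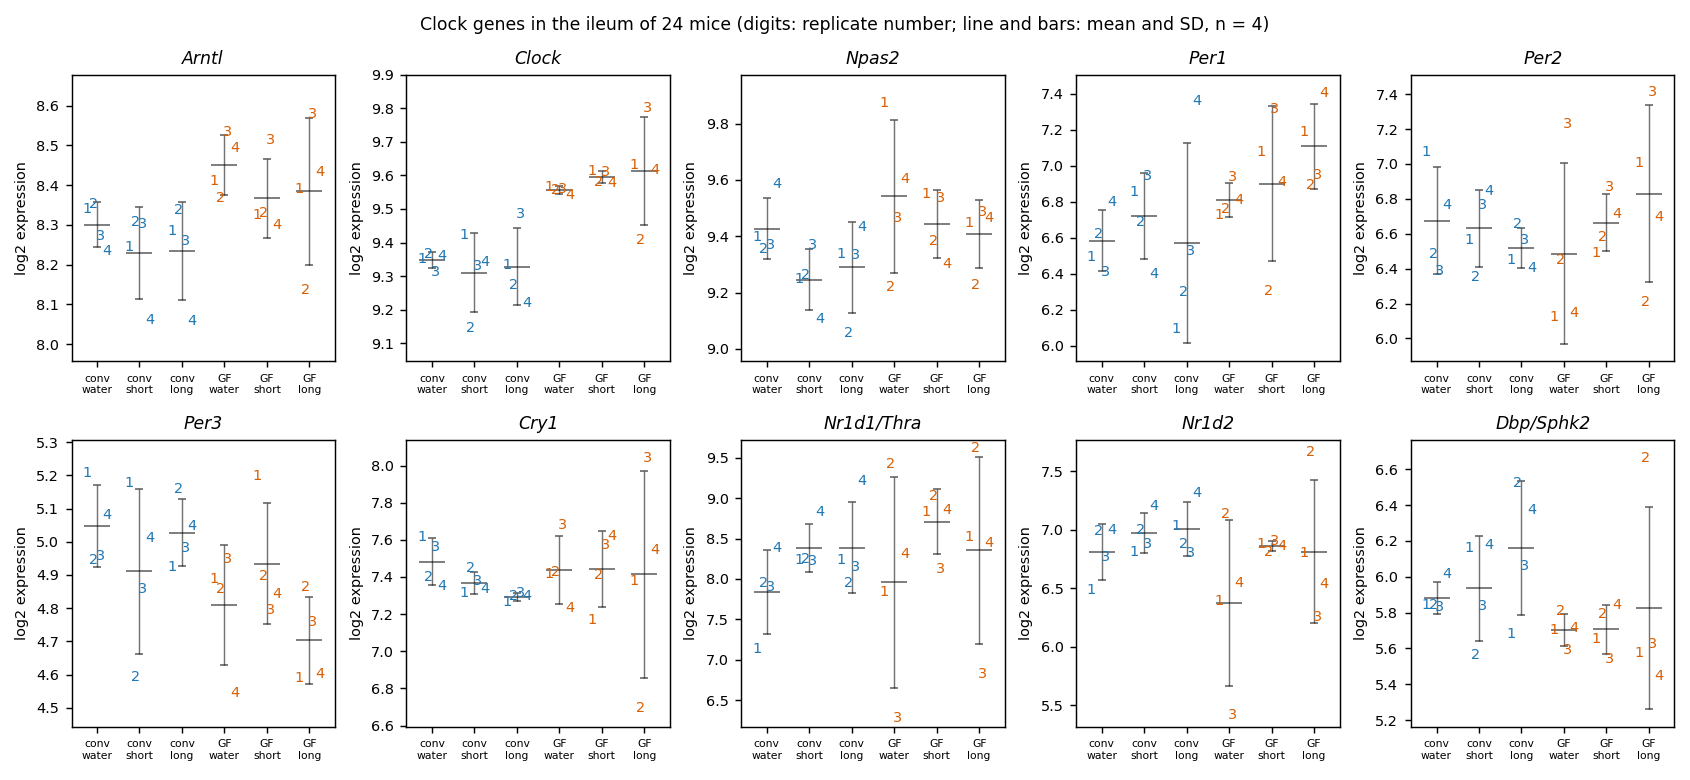
Log2 expression (y axis) of the 10 clock genes in the 6 groups (x axis; conv, conventional; GF, germ-free), with a digit for each mouse giving its replicate number, and the group mean with its SD (n = 4) in black. Mean Clock lay higher in germ-free mice under each gavage, with its widest spread in germ-free mice on long-chain β2→1-fructan (SD 0.16). Nr1d1/Thra and Nr1d2 spread widest among germ-free mice on water and on long-chain β2→1-fructan.

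None of the 10 clock genes was called between germ-free and conventional mice under any gavage. In the comparison of mice on water 8.73% of all features were called in either direction, on short-chain β2→1-fructan 8.76%, on long-chain β2→1-fructan 9.68%, and for the mean over the 3 gavages 8.2%. At an unadjusted p under 0.05, limma gave 1, 1, 3 and 6 of the 10 clock genes in these 4 comparisons, against 25.8%, 27.3%, 28.2% and 41.9% of all features. The clearest difference was that of Clock, which was higher in germ-free mice by less than 1.3-fold.

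Clock (probe set 10530733; chr5:76209868-76305603, GRCm38) encodes the partner of ARNTL. In conventional mice its log2 level was 9.35, 9.37, 9.31 and 9.36 on water, 9.42, 9.15, 9.33 and 9.34 on short-chain β2→1-fructan, and 9.33, 9.27, 9.49 and 9.22 on long-chain β2→1-fructan. In germ-free mice it was 9.57, 9.56, 9.56 and 9.54 on water, 9.61, 9.58, 9.61 and 9.58 on short-chain β2→1-fructan, and 9.63, 9.41, 9.80 and 9.62 on long-chain β2→1-fructan. All germ-free mice lay above all conventional mice on water and on short-chain β2→1-fructan, and on long-chain β2→1-fructan a single pair of mice overlapped in range. Compared to conventional mice, the log2 level was higher by 0.21 ± 0.068 (SE) on water (limma, adjusted p = 0.0401; exact permutation p = 0.0286). The difference was 0.28 on short-chain (adjusted p = 0.0045, limma) and 0.29 on long-chain β2→1-fructan (adjusted p = 0.0042, limma). Over the 3 gavages it was 0.26 ± 0.039 (SE), a 1.2-fold difference (limma, adjusted p = 7.28e-06). By group mean the order was germ-free long-chain (9.61), germ-free short-chain (9.60), germ-free water (9.56), conventional water (9.35), conventional long-chain (9.33) and conventional short-chain (9.31), and only the step between the water groups passed the test. Leaving out any 1 of the 8 mice on water left a difference of 0.20 to 0.21 with adjusted p of 0.067 to 0.102, so that the adjusted p under 0.05 on water rested on each of these mice. The differences on short-chain and long-chain β2→1-fructan stayed at an adjusted p under 0.05 without any 1 mouse, as did that over the 3 gavages.

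At an adjusted p under 0.05 and with a higher level in germ-free mice, the share of all features was 5.59% on water, 8.84% on short-chain and 7.27% on long-chain β2→1-fructan. Clock was the only clock gene among them in each of these 3 comparisons. For the mean over the 3 gavages the share was 18.6%, and 3 of the 10 clock genes (Arntl, Clock and Per1) were among them. The median log2 difference of the 10 clock genes over the 3 gavages was 0.10, against 0.03 for all features.

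Arntl (probe set 10556463; chr7:113178471-113314126) encodes the factor without which the loop stops. Its log2 level in conventional mice was 8.34, 8.35, 8.27 and 8.24 on water, 8.25, 8.31, 8.30 and 8.06 on short-chain, and 8.28, 8.34, 8.26 and 8.06 on long-chain β2→1-fructan. In germ-free mice it was 8.41, 8.37, 8.53 and 8.49 on water, 8.32, 8.33, 8.51 and 8.30 on short-chain, and 8.39, 8.14, 8.58 and 8.43 on long-chain β2→1-fructan. The water groups did not overlap, and the ranges of the fructan groups did. The difference was 0.15, 0.14 and 0.15 under the 3 gavages, each with an adjusted p over 0.2 in limma, and 0.15 ± 0.046 (SE) over all of them, a 1.11-fold difference (limma, adjusted p = 0.0152; exact permutation within gavages, p = 0.0036). With cyclic loess between arrays on top of RMA it was 0.10 and no longer passed (limma, adjusted p = 0.097). Npas2 (probe set 10345675), the relative of Clock, spanned 9.06 to 9.59 in conventional and 9.22 to 9.87 in germ-free mice and was higher by 0.14 ± 0.058 (SE) over the 3 gavages, which did not pass (limma, adjusted p = 0.06).

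**Figure D2:**
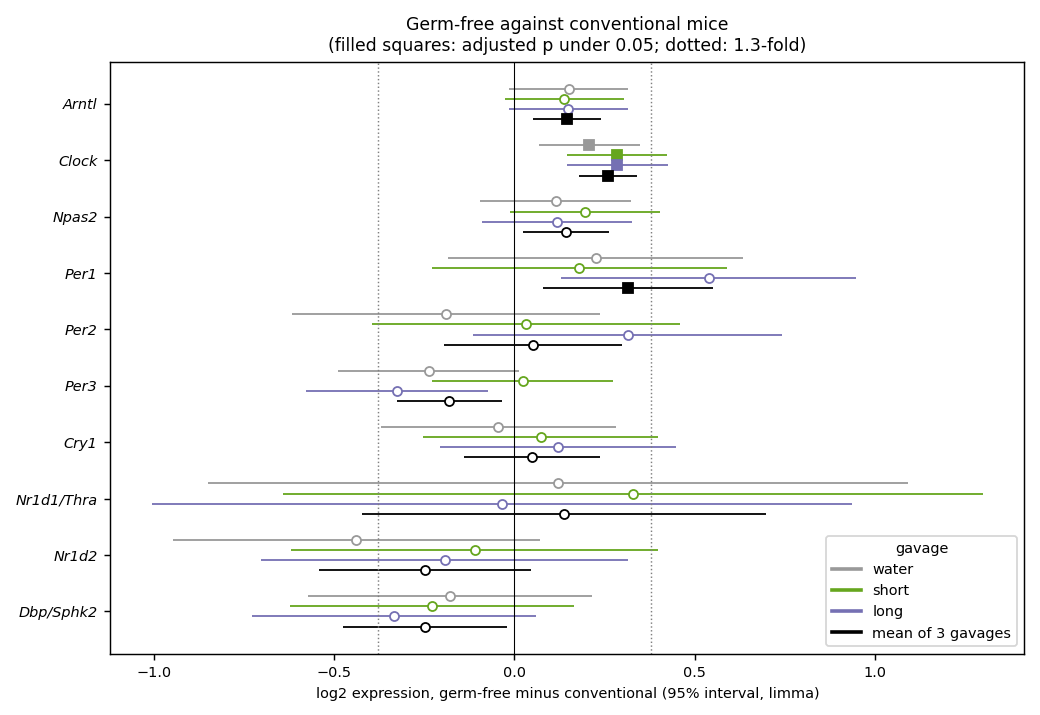
Log2 difference between germ-free and conventional mice (x axis) for each clock gene (y axis) on water, short-chain and long-chain β2→1-fructan and for the mean over the 3 gavages, with limma's 95% interval. Dotted lines mark a 1.3-fold difference, and filled squares an adjusted p under 0.05, which Clock reached in all 4 comparisons and Arntl and Per1 only for the mean.

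Among the repressors, Per1, a gene that responds rapidly to light, glucocorticoids and feeding, was higher in germ-free mice over the 3 gavages. Its log2 level (probe set 10377439; chr11:69095108-69109965) in conventional mice was 6.50, 6.62, 6.41 and 6.80 on water, 6.86, 6.69, 6.94 and 6.40 on short-chain, and 6.09, 6.30, 6.53 and 7.36 on long-chain β2→1-fructan. In germ-free mice it was 6.73, 6.76, 6.94 and 6.81 on water, 7.08, 6.30, 7.31 and 6.91 on short-chain, and 7.19, 6.89, 6.95 and 7.41 on long-chain β2→1-fructan. The groups overlapped under every gavage, with conventional replicate 4 on long-chain β2→1-fructan far above the other 3 mice of its group. The difference was 0.31 ± 0.11 (SE) over the 3 gavages (limma, adjusted p = 0.0346), and without 1 mouse it ranged from 0.26 to 0.40 and kept an adjusted p under 0.05 in 14 of 24 fits. On long-chain β2→1-fructan alone it was 0.54 ± 0.199 (SE, limma, adjusted p = 0.0658). Without that conventional mouse, replicate 4, it was 0.80 and Per1 passed both thresholds.

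Per3 (probe set 10518781), a paralog that is dispensable for the rhythm itself, had log2 levels of 4.92, 5.16, 4.98 and 5.05 in conventional and 4.59, 4.86, 4.76 and 4.60 in germ-free mice on long-chain β2→1-fructan. These 2 groups did not overlap, with all germ-free mice lower, and the difference was -0.32 ± 0.123 (SE, limma, adjusted p = 0.0723; exact permutation p = 0.0286). On water the difference was -0.24 and on short-chain β2→1-fructan 0.02, and over the 3 gavages it was -0.18 ± 0.071 (SE, limma, adjusted p = 0.0506). Per3 was the dimmest of the 10 clock genes. Its mean level of 4.91 lay below the median of all features (5.53), so that its small differences call for caution.

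Per2 (probe set 10356601; chr1:91415977-91459351) and Cry1 (probe set 10371400; chr10:85131700-85185054), further repressors of the loop, differed between germ-free and conventional mice by 0.05 ± 0.12 (SE) and 0.05 ± 0.092 (SE) over the 3 gavages. The 95% intervals reached from -0.19 to 0.30 for Per2 and from -0.14 to 0.24 for Cry1. The level of Cry1 spanned 7.26 to 7.62 over 12 conventional and 6.69 to 8.04 over 12 germ-free mice, and that of Per2 6.35 to 7.07 and 6.12 to 7.41. Both extremes of each gene were thus germ-free mice.

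Nr1d1 and Nr1d2, which repress Arntl, showed no difference past the test between germ-free and conventional mice, but very large differences between mice of 1 group. The Nr1d1/Thra probe set used here (10390691; Nr1d1 lies at chr11:98767932-98775377) matches RefSeq transcripts of Nr1d1 alone, although its annotation also names Thra, which overlaps Nr1d1 on the other strand. Its log2 level in conventional mice was 7.13, 7.95, 7.90 and 8.38 on water, 8.23, 8.24, 8.22 and 8.83 on short-chain, and 8.23, 7.95, 8.15 and 9.22 on long-chain β2→1-fructan. In germ-free mice it was 7.84, 9.42, 6.27 and 8.30 on water, 8.83, 9.03, 8.13 and 8.85 on short-chain, and 8.52, 9.62, 6.82 and 8.44 on long-chain β2→1-fructan. Replicate 2 was the highest and replicate 3 the lowest in all 3 germ-free groups, of which those on water and on long-chain β2→1-fructan were the widest. In all 3 conventional groups replicate 4 was the highest. The 24 mice spanned 10.2-fold. Over the 3 gavages germ-free minus conventional mice gave 0.14 ± 0.273 (SE), with a 95% interval from -0.42 to 0.70. The other Nr1d1/Thra probe set (10381006), which has the higher mean and matches transcripts of both genes, spanned only 1.54-fold, from 8.54 to 9.16, and differed by -0.12 ± 0.049 (SE, limma, adjusted p = 0.0562). It is the set that the written rule of highest mean names, and the deviations of mice from their group means correlated at 0.64 between both sets.

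Nr1d2 (probe set 10417734; chr14:18204056-18239106) had log2 levels in conventional mice of 6.49, 6.99, 6.76 and 6.997 on water, 6.81, 7.002, 6.88 and 7.20 on short-chain, and 7.03, 6.87, 6.80 and 7.32 on long-chain β2→1-fructan. In germ-free mice they were 6.39, 7.13, 5.42 and 6.55 on water, 6.88, 6.81, 6.90 and 6.86 on short-chain, and 6.80, 7.67, 6.25 and 6.53 on long-chain β2→1-fructan. The same mice as for Nr1d1/Thra, replicates 2 and 3, were the highest and the lowest of the germ-free water and long-chain groups. On short-chain β2→1-fructan germ-free replicate 3 (6.90) was instead the highest and replicate 2 (6.81) the lowest. Replicate 4 was the highest in each conventional group. Over the 3 gavages germ-free minus conventional mice gave -0.25 ± 0.143 (SE, limma, adjusted p = 0.198). Nr1d2 is annotated to 2 probe sets, and the other was not examined by itself. Whether the spread and the correlations of Nr1d2 depend on the probe set was therefore not tested.

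Dbp/Sphk2 (probe set 10553092; Dbp lies at chr7:45705100-45710203), whose values cannot be divided between Dbp and Sphk2, was 5.84, 5.84, 5.83 and 6.01 in conventional and 5.70, 5.81, 5.59 and 5.71 in germ-free mice on water. The water groups did not overlap (exact permutation p = 0.0286, the lowest this test can give). With the spread pooled over all groups the difference of -0.18 ± 0.192 (SE) did not pass (limma, adjusted p = 0.623). Over the 3 gavages it was -0.25 ± 0.111 (SE, limma, adjusted p = 0.0892). Without germ-free replicate 2 on long-chain β2→1-fructan, the highest of all mice at 6.66, it was -0.34 (limma, adjusted p = 0.0022), and it passed in 3 of the 24 fits without 1 mouse.

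None of the clock genes was called after either fructan, in conventional or in germ-free mice. The share of all features called was 0.409% for short-chain β2→1-fructan against water in conventional mice, 0.308% for long-chain β2→1-fructan against water in conventional mice, and 0.579% and 0.855% for the same comparisons in germ-free mice. For long-chain against short-chain β2→1-fructan it was 0.213% in conventional and 1.41% in germ-free mice. No clock gene reached even an unadjusted p under 0.05 in these 6 comparisons in limma, and none was called with the intensity-based moderated t. No feature at all reached an adjusted p under 0.05 in limma in these comparisons, while 684 to 2392 features had an unadjusted p under 0.05. The comparisons with water share the water mice, so that a high or low water group moves both of them.

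**Figure D3:**
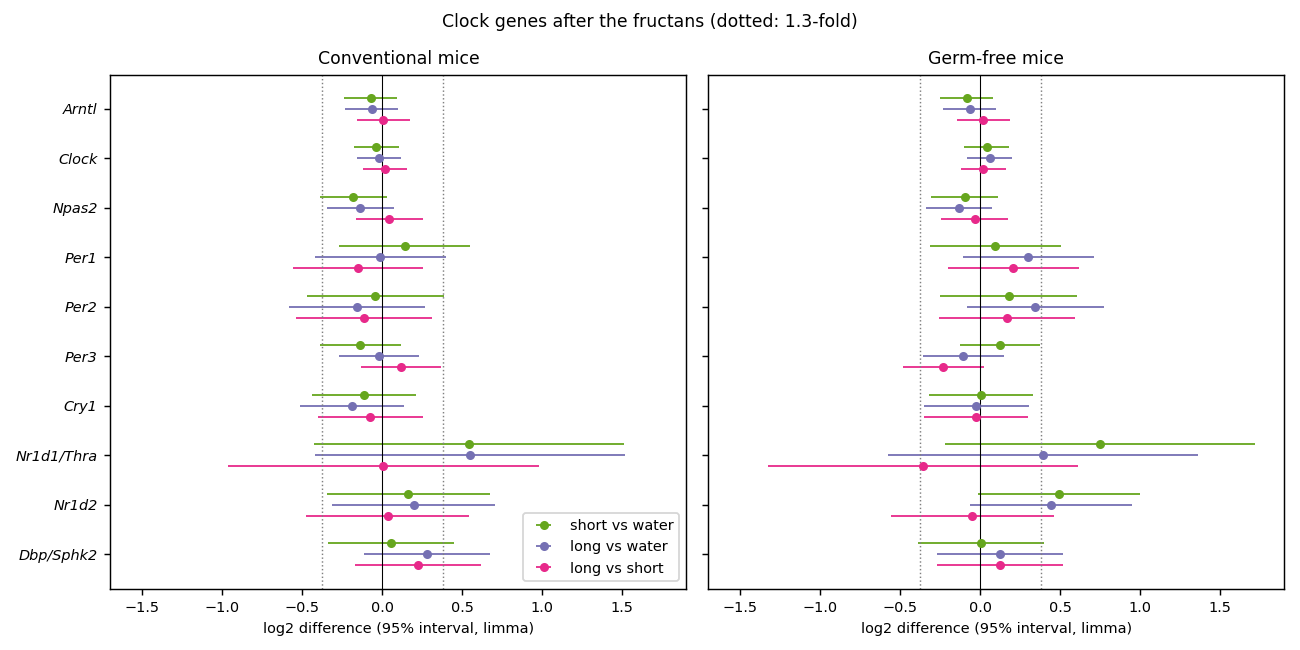
Log2 difference (x axis) of each clock gene (y axis) after short-chain or long-chain β2→1-fructan against water, and between both fructans, in conventional and germ-free mice, with limma's 95% interval and dotted lines at 1.3-fold. Every interval includes 0, and the interval of Nr1d1/Thra is the widest of the 10 genes in each comparison.

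The smallest p after a fructan was that of Nr1d2 in germ-free mice, where short-chain β2→1-fructan gave a log2 level higher by 0.49 ± 0.247 (SE) than water (limma, unadjusted p = 0.0576, adjusted p = 0.865, exact permutation p = 0.171). The 4 short-chain mice lay between 6.81 and 6.90, within the span of the water mice from 5.42 to 7.13. Long-chain β2→1-fructan gave 0.44 ± 0.247 (SE) in the same comparison (limma, unadjusted p = 0.0863, adjusted p = 0.627, exact permutation p = 0.429). Without germ-free replicate 2 on water, the highest of its group, these differences were 0.74 and 0.69 and both passed the unadjusted thresholds (limma, adjusted p = 0.643 and 0.405). Nr1d1/Thra was higher than on water by 0.54 and 0.55 in conventional and by 0.75 and 0.39 in germ-free mice after short-chain and long-chain β2→1-fructan, each with an SE of 0.472, and its 95% intervals lay between -0.58 and 1.72.

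For Arntl and Clock the limits were tighter. The differences of Arntl after a fructan lay between -0.09 and -0.07 in all 4 comparisons with water, with an SE of 0.080, and those of Clock between -0.04 and 0.06, with an SE of 0.068. Their 95% intervals stayed within 1.3-fold, from -0.25 to 0.10 for Arntl and from -0.18 to 0.20 for Clock. The 4 germ-free mice on short-chain β2→1-fructan had higher Clock than the 4 on water (exact permutation p = 0.0286), a difference of 0.04 that was small beside the spread pooled over all groups (limma, p = 0.57). The differences of Npas2 from water were -0.18 and -0.14 in conventional and -0.10 and -0.13 in germ-free mice, none of which passed (limma, p of 0.0858 to 0.342), and the lowest of its 95% intervals, after short-chain β2→1-fructan in conventional mice, reached from -0.39 to 0.03 and past 1.3-fold.

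Of the repressors, Cry1 in conventional mice was 7.62, 7.40, 7.56 and 7.35 on water, 7.32, 7.45, 7.38 and 7.33 on short-chain, and 7.26, 7.30, 7.31 and 7.30 on long-chain β2→1-fructan. The long-chain mice lay below all mice of both other conventional groups (exact permutation p = 0.0286 against each). The differences were -0.19 from water and -0.08 from short-chain β2→1-fructan, with an SE of 0.159 in limma, where neither passed (adjusted p = 0.925 and 1). In germ-free mice Cry1 was 7.42, 7.43, 7.68 and 7.23 on water, 7.17, 7.41, 7.57 and 7.62 on short-chain, and 7.38, 6.69, 8.04 and 7.54 on long-chain β2→1-fructan, and the groups overlapped. Per1 and Per2 in germ-free mice were higher on long-chain β2→1-fructan than on water by 0.30 ± 0.199 (SE) and 0.34 ± 0.208 (SE), with limma p of 0.144 and 0.11. Per2 in these mice was 6.12, 6.45, 7.23 and 6.14 on water and 7.01, 6.21, 7.41 and 6.69 on long-chain β2→1-fructan, with overlapping groups.

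Whether a change after a fructan differed between germ-free and conventional mice was asked by the interaction. It called none of the clock genes, against 0.707% of all features after the short-chain fructan and 0.531% after the long-chain fructan, and no clock gene had an unadjusted p under 0.05 in limma. The largest of these differences relative to its error was that of Per2 after long-chain β2→1-fructan, at 0.50 ± 0.294 (SE, limma, adjusted p = 1).

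Mice of the same group differed more in several clock genes than in most other genes. The SD within groups, on the log2 scale and pooled over the 6 groups, was 0.80 for Nr1d1/Thra, the 17th highest of 18823 features, 0.41 for Nr1d2, 0.34 for Per2, 0.33 for Per1, 0.31 for Dbp/Sphk2 and 0.26 for Cry1. The median of all features was 0.156, and these 6 genes lay at the 99.9, 99.1, 98.1, 97.9, 97.3 and 93.3 percentile. Per3 (0.17), Npas2 (0.16), Arntl (0.12) and Clock (0.095) lay at the 59.2, 53.0, 22.9 and 10.5 percentile. Among the 1000 features nearest in mean level, they lay at the 30.5, 86.2, 63.5 and 39 percentile. The 6 more variable genes lay at the 96.2 to 99.8 percentile there. Within conventional mice the SD was 0.48 for Nr1d1/Thra, 0.22 for Nr1d2 and 0.081 for Cry1, and within germ-free mice 1.03, 0.54 and 0.36, while for Per1 it was 0.36 and 0.29. These differences in spread are given as a description and were not tested. Without any 1 mouse the SD of Nr1d1/Thra stayed between 0.68 and 0.83. The brighter Nr1d1/Thra probe set had an SD of 0.13, at the 30.7 percentile of all features and the 72.5 percentile of those nearest in level. The wide spread of Nr1d1/Thra thus depends on the choice of probe set.

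The deviations of single mice from their group mean were then compared between genes, to ask whether the clock genes differed together. Of the 45 pairs of the 10 genes, 7 had an adjusted p under 0.05 by Pearson's r (permutation of mice within groups, 24 mice), 3 positive and 4 negative, and 3 by Spearman's rho. This permutation takes the mice of a group as exchangeable. It does not allow for deviations that recur by replicate number across groups, as those of Nr1d1/Thra and Arntl did. With that number as a block, 2 pairs passed. Nr1d1/Thra and Nr1d2 rose and fell together (r = 0.92, adjusted p = 0.00045, rho = 0.77, adjusted p = 0.0029), and r was 0.87 without the 2 mice farthest from the median of Nr1d1/Thra. Arntl ran opposite to Nr1d1/Thra (r = -0.79, adjusted p = 0.00045, rho = -0.82, adjusted p = 0.0029 and r = -0.72 without the 2 mice farthest in Arntl) and to Nr1d2 (r = -0.69, adjusted p = 0.0062, rho = -0.56, adjusted p = 0.086 and r = -0.55 without them). These 3 pairs kept an adjusted p under 0.05 in each of the 24 analyses without 1 mouse, but with the replicate number as a block only that of Nr1d1/Thra and Nr1d2 did, and Arntl had an adjusted p of 0.054 with Nr1d1/Thra and of 0.119 with Nr1d2 (permutation). Within conventional mice alone r was 0.91, -0.83 and -0.67, and within germ-free mice alone 0.92, -0.80 and -0.74, with 12 mice each, where no pair passed the adjusted threshold by r (adjusted p of 0.081 to 0.351 and of 0.087 to 0.093 for these pairs, permutation). The counts depend on the choice of the Nr1d1/Thra probe set. With the brighter set, 1 of the 45 pairs passed in place of 7, that of Arntl and Nr1d2, and none of the 9 pairs with Nr1d1/Thra did, at r of 0.59 with Nr1d2 (permutation, adjusted p = 0.175), -0.55 with Arntl (permutation, adjusted p = 0.131) and -0.64 with Cry1 (permutation, adjusted p = 0.106).

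**Figure D4:**
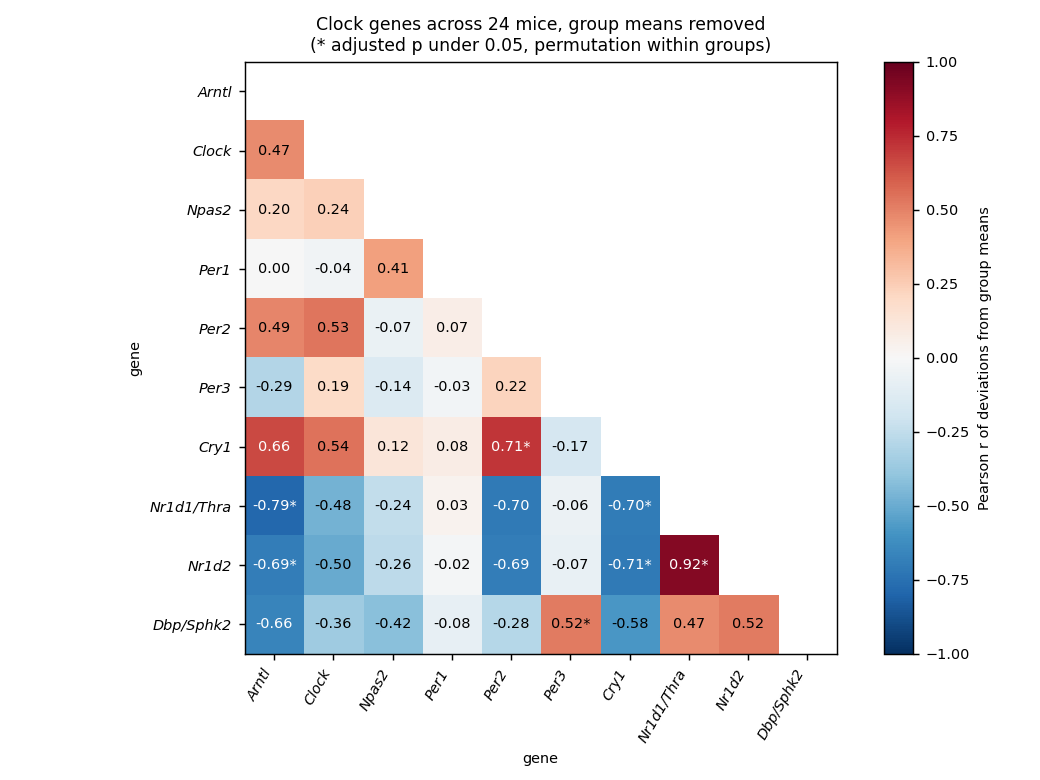
Pearson r between each pair of the 10 clock genes (both axes) over the deviations of 24 mice from their group means, on a colour scale from -1 to 1, with an asterisk at an adjusted p under 0.05 (permutation within groups). Nr1d1/Thra and Nr1d2 correlated at 0.92 with each other and negatively with Arntl and Cry1, while their negative r with Per2 did not pass.

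Cry1, which like Arntl is a target of the REV-ERB receptors, was lower where Nr1d1/Thra (r = -0.70, adjusted p = 0.043, rho = -0.64, adjusted p = 0.041) and Nr1d2 (r = -0.71, adjusted p = 0.043, rho = -0.59, adjusted p = 0.075) were higher. Without the 2 mice farthest in Cry1, germ-free replicates 2 and 3 on long-chain β2→1-fructan, r fell in size to -0.50 and -0.51. Per2 and Cry1 rose together (r = 0.71, adjusted p = 0.043, rho = 0.49, adjusted p = 0.165 and r = 0.60 without the 2 farthest mice), but r was 0.08 in conventional and 0.82 in germ-free mice, so that this relation rested on the germ-free mice. Per3 and Dbp/Sphk2 rose together (r = 0.52, adjusted p = 0.043, rho = 0.53, adjusted p = 0.086 and r = 0.43 without the 2 farthest mice), with r of 0.75 in conventional and 0.34 in germ-free mice. Each of these 4 pairs kept an adjusted p under 0.05 in only 11 or 12 of the 24 analyses without 1 mouse. Per2 had r of -0.70 with Nr1d1/Thra and -0.69 with Nr1d2, neither of which passed (permutation, adjusted p = 0.069 and 0.085). Per1 followed none of the other clock genes past the adjusted threshold, and its largest r was 0.41, with Npas2 (permutation, adjusted p = 0.123).

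**Figure D5:**
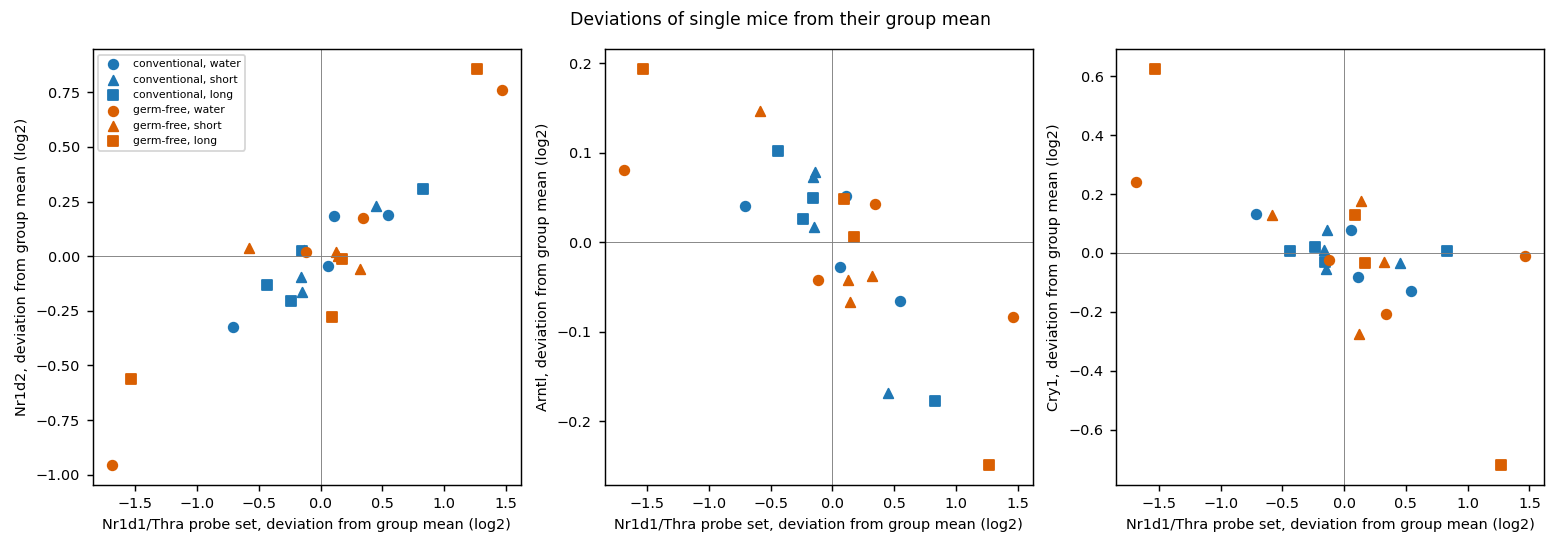
Deviation of each of the 24 mice from its group mean in log2 expression, for Nr1d2, Arntl and Cry1 (y axes) against the Nr1d1/Thra probe set (x axes), with blue for conventional and orange for germ-free mice and the shape giving the gavage. Nr1d2 rose with Nr1d1/Thra (r = 0.92) while Arntl (r = -0.79) and Cry1 (r = -0.70) fell, and the mice farthest from the centre were germ-free replicates 2 and 3 on water and on long-chain β2→1-fructan.

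The mice with the most extreme clock values were the same for several genes. Germ-free replicate 3 on long-chain β2→1-fructan had the second lowest Nr1d1/Thra value (6.82) and the highest Arntl (8.58), Clock (9.80), Per2 (7.41) and Cry1 (8.04) of all 24 mice. Germ-free replicate 2 of the same group had the highest Nr1d1/Thra (9.62), Nr1d2 (7.67) and Dbp/Sphk2 (6.66) and the lowest Cry1 (6.69). Germ-free replicate 3 on water had the lowest Nr1d1/Thra (6.27) and the lowest Nr1d2 (5.42). A difference between these mice in the hour of sampling was not tested, since no hour was given in the sources used here.

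Genes whose pattern was most like that of Arntl, by Pearson r of the deviations over 24 mice and 18822 features, were Lyst (0.80), Btg1 (0.79), Prkci (0.78), Cxcr4 (0.77) and Hdac4 (0.77), and those most opposite were Nxf7 (-0.87), the clock gene Nr1d1/Thra (-0.79), Aldh16a1 (-0.75), Cdc25b (-0.74) and H2bc18 (-0.74). For Dbp/Sphk2 they were Izumo1r (0.83), Apobec2 (0.83), Serpinb1c (0.81), Slc6a2 (0.81) and Mir299a (0.79), and the most opposite were Yipf6 (-0.81), Hipk3 (-0.80), Atf7 (-0.80), Rida (-0.78) and Hs6st1 (-0.78). No other clock gene was among the nearest of Dbp/Sphk2.

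The rest of the clock machinery was taken from lists. Of 10 measured genes of the wider loop (Cry2, Rora, Nfil3, Tef, Hlf, Ciart, Bhlhe40, Bhlhe41, Arntl2 and Timeless) none was called in any of the 12 comparisons, and their median log2 difference between germ-free and conventional mice over the 3 gavages was -0.04, against 0.03 for all features. The lowest p there were those of Bhlhe41, a repressor of the E-box (-0.28 ± 0.076, SE; limma, adjusted p = 0.0055), and of Rora, which binds the same elements as the REV-ERB receptors and activates (-0.18 ± 0.053, SE; limma, adjusted p = 0.0097). Within groups, Ciart, a repressor of CLOCK and ARNTL, was as variable as Nr1d2 (SD 0.42, percentile 99.2). The log2 levels of Bhlhe41 (2.90 to 3.67) and Ciart (3.26 to 4.92) lay wholly below the median of all features (5.53). Those of Arntl2 (3.88 to 4.73), Hlf (4.30 to 5.13) and Timeless (4.57 to 5.26) did as well. The differences, spread and correlations of these dim genes call for caution, as for Per3. Nfil3, a repressor at D-boxes and a known target of the REV-ERB receptors, had an SD of 0.27. It correlated at -0.70 with Nr1d2 and at 0.65 with Arntl. Hlf, a relative of Dbp, correlated at -0.60 with Nr1d2, whereas Dbp/Sphk2 itself had 0.52. These 2 genes were the most opposite to Nr1d2 of the 10, which ranged up to 0.36 (Ciart). Arntl2 (-0.54), Bhlhe40 (-0.34) and Timeless (0.31) lay between. Nearer 0 were Tef (0.19), Bhlhe41 (0.02), Cry2 (-0.14) and Rora (-0.18). These values are given as a description.

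Over the 3 gavages 2.99% of all features were called higher and 5.22% lower in germ-free mice. Of 9 measured kinases and ubiquitin ligases that act on clock proteins 1 was lower in germ-free mice over the 3 gavages, Fbxl21, a ubiquitin ligase of the cryptochromes (-0.40 ± 0.063, SE; limma, adjusted p = 1.48e-05), and none was called after a fructan. Their median was 0.08. Of 11 measured genes known as clock outputs 2 were lower over the 3 gavages, Slc9a3, a sodium-proton exchanger of the brush border (-2.15 ± 0.128, SE; limma, adjusted p = 5.5e-13), and Usp2, a deubiquitinase (-0.54 ± 0.089, SE; limma, adjusted p = 2.26e-05), with a list median of 0.03, and none was called after a fructan. On short-chain β2→1-fructan alone 1 output gene, Abcb1a, an efflux transporter, was called higher in germ-free mice (0.39 ± 0.091, SE, limma, adjusted p = 0.0041). Another 2 output genes were called lower there. Of all 18823 features, 808 were called higher and 841 lower in this comparison.

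Glucocorticoids and fasting both act on Per1 and on the phase of peripheral clocks, and a list of responsive genes was examined for each. Of 8 glucocorticoid-responsive genes 4 were higher in germ-free mice over the 3 gavages: Pdk4 (1.43 ± 0.215, SE), Fkbp5 (0.78 ± 0.119, SE), Errfi1 (0.75 ± 0.124, SE) and Sgk1 (0.45 ± 0.105, SE), all with an adjusted p of 0.00127 or less in limma. Of 6 fasting-responsive genes 4 were higher, Angptl4 (2.21 ± 0.144, SE), Pck1 (1.02 ± 0.134, SE), Pdk4 and Acot1 (0.55 ± 0.119, SE), with Pdk4 on both lists. The list medians were 0.53 and 0.78. All 5 adipocyte markers were also called higher in the same comparison, with a median of 1.41, and their part in these differences was not tested. Across mice of the same group, the mean of the glucocorticoid-responsive genes rose with Per1 (r = 0.73, rho = 0.69 and r = 0.67 without the 2 farthest mice), which did not pass after adjustment over 32 relations of lists and clock genes (permutation, adjusted p = 0.115).

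As markers of ileum, Vil1, Epcam, Cdh1, Krt20, Lgals4 and Cdx2 of the epithelium had mean log2 levels of 9.46 to 12.1 over the 24 mice, and Fabp6, Slc10a2, Slc51a and Slc51b of ileal enterocytes 10.7 to 12.5. None of 6 epithelial and none of 4 ileal enterocyte markers was called between germ-free and conventional mice over the 3 gavages. Of the other cell types, 4 of 6 smooth muscle, 4 of 5 lymphocyte and 2 of 4 neuron and glia markers were lower and 5 of 5 adipocyte markers were higher in germ-free mice. On water the mean log2 level of the adipocyte markers was 5.98 to 6.07 in conventional and 6.12 to 7.98 in germ-free mice, that of smooth muscle markers 10.4 to 10.6 and 9.38 to 10.3, and that of lymphocyte markers 5.81 to 6.21 and 4.59 to 4.81. In tissue RNA, fewer cells of a type and less RNA per cell cannot be told apart. The part of these cell types in the differences of Clock, Arntl and Per1 between germ-free and conventional mice was not tested. Within groups, the adipocyte markers were highest in the 2 germ-free mice with the lowest Nr1d1/Thra, at 7.98 on water and 7.96 on long-chain β2→1-fructan, with r of -0.43 to Nr1d1/Thra over 24 mice (permutation, adjusted p = 0.439). The ileal enterocyte markers correlated with Nr1d1/Thra at 0.56 and the smooth muscle markers with Nr1d2 at -0.60, which were 0.29 and -0.06 without the 2 farthest mice, and neither passed after adjustment (permutation, adjusted p = 0.38 and 0.419).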

How the data were processed

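RNA of the terminal ileum of 24 mice was measured on Affymetrix Mouse Gene 1.1 ST arrays, 1 per mouse, in 6 groups of 4 taken from the labels. The values are log2 expression as deposited by the authors, who made them with RMA (Bioconductor library affyPLM), which corrects background, quantile-normalizes and summarizes each probe set. The methods name a remapped probe set definition, whereas the table carries the probe set numbers of the manufacturer. No array was left out.

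Of 35556 probe sets 21218 carry 1 gene symbol, 1881 several and 12457 none. For the 1386 genes with several sets, the set with the highest mean was used, which gave 18820 genes. With the 3 shared probe sets of Nr1d1 and Dbp, 18823 features were fitted in limma 3.58.1 (R 4.3.3), with the 6 group means in 1 model and moderated statistics whose prior variance follows the mean level (eBayes with trend). For Nr1d1 this departs from the rule of highest mean that had been written down: the set that matches its transcripts alone was used, a choice made once the annotation was in hand, and the set with the higher mean is given beside it. Exact permutation tests, planned for called genes, were run for all 10, since none was called, and correlations of deviations from group means were tested with 100000 permutations of mice within groups (Python 3.11.15, numpy 2.4.6, scipy 1.17.1).

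The clock genes and the gene lists, written from general knowledge, were chosen with earlier results of these data known. Named were the clock genes, the called genes of each list (at most 4 by smallest p, or at most 2 where none was called), and the 5 most like and 5 most opposite genes of Arntl and Dbp/Sphk2. Some genes of the lists are not reported here, and the counts of each list are over the genes analysed. Over all features, replicate numbers did not pair the mice. The code was tested on simulated data. Alternatives tried were a common prior, the intensity-based moderated t, only arrays of the same colonization status, cyclic loess, array weights, the mean of all probe sets, no dim genes, the replicate number as a block, and leaving out each mouse. Those for adjusted p, correlations and spread without 1 mouse and for the other Nr1d1/Thra probe set were added after seeing the data.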

Additional observations from a re-analysis of the deposited data

Results flagged for a closer look

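In 60 groups of 4 mice (10 genes in 6 groups), 5 held a mouse whose gap to the nearest other mouse, divided by the range of the group, exceeded Dixon's critical value at the 95% level, which chance alone gives in about 5% of groups. Arntl was 8.51 in germ-free replicate 3 on short-chain β2→1-fructan, against 8.30 to 8.33 in the others. Npas2 was 9.23 in germ-free replicate 2 on long-chain β2→1-fructan, against 9.45 to 9.49. Dbp/Sphk2 was 6.66 in the same mouse, against 5.45 to 5.62, and 6.01 in conventional replicate 4 on water, against 5.83 to 5.84. Nr1d1/Thra was 8.83 in conventional replicate 4 on short-chain β2→1-fructan, against 8.22 to 8.24.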

How the results depend on the processing

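No difference or correlation past its threshold changed its direction under the alternatives that were run, while differences near 0 over the 3 gavages took both signs without 1 mouse (Cry1 -0.02 to 0.13, Per2 -0.03 to 0.12 and Nr1d1/Thra -0.02 to 0.33). The count of 1 clock gene at an adjusted p under 0.05 in germ-free against conventional mice on water (Clock) became 0 with a common prior (limma, adjusted p = 0.0753) and with cyclic loess (limma, 0.16, adjusted p = 0.0852), and 0 in each of the 8 fits without 1 mouse, where 0 to 1 clock genes were called. With cyclic loess Arntl over the 3 gavages no longer passed (limma, adjusted p = 0.0973), while Per3 came under it with a common prior (0.0397), the intensity-based moderated t (0.0485) and the mean of all probe sets (0.0486), and Npas2 with array weights (0.0441), without dim genes (0.047) and with the replicate block (0.0327).

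Over all features the replicate numbers did not pair the mice. Of 60 pairs of mice with the same number, 4 deviated together at r over 0.1 and 4 at r under -0.1 (median 0.0079). In none of the 15 pairs of groups were all over 0.1. This does not speak for single genes. Nr1d1/Thra was highest in replicate 2 and lowest in replicate 3 of each germ-free group, and highest in replicate 4 of each conventional group. Arntl was highest in replicate 3 of each germ-free group and in replicate 2 of each conventional group. Nr1d2 did not keep this order in germ-free mice on short-chain β2→1-fructan. Whether clock genes followed the replicate number was not tested. With the number as a replicate block, 1 clock gene in place of 0 was called between germ-free and conventional mice on long-chain β2→1-fructan (Per1, 0.54), and 2 pairs of genes correlated at an adjusted p under 0.05 in place of 7. The pairs lost were Arntl and Cry1 each with Nr1d1/Thra and Nr1d2, and Per2 with Cry1.

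With the Nr1d1/Thra probe set of the highest mean, which the written rule names, 1 pair passed in place of 7. In conventional mice alone and in germ-free mice alone, 0 of the 45 pairs passed by r, and without 1 mouse 3 to 10 passed. In 11 of these 24 analyses 3 or 4 passed, those without conventional replicates 1 and 2 on water, conventional replicate 3 on short-chain, germ-free replicates 1 and 3 on water, germ-free replicates 1 and 3 on short-chain and any germ-free replicate on long-chain β2→1-fructan. Between germ-free and conventional mice on long-chain β2→1-fructan, 0 to 2 clock genes were called and 1 to 4 had an adjusted p under 0.05 without 1 mouse. The highest of these came without germ-free replicate 2 (Arntl, Clock, Cry1 and Dbp/Sphk2 by adjusted p). Over the 3 gavages 0 to 1 were called and 2 to 7 had an adjusted p under 0.05, with 7 without germ-free replicate 2 and 5 without conventional replicate 2 on short-chain β2→1-fructan. After the fructans 0 to 1 were called in germ-free mice against water: Nr1d2 after either fructan without replicate 2 on water, and Per2 after long-chain β2→1-fructan without replicate 3 on water (0.59). The latter also gave 0 to 1 for the interaction of long-chain β2→1-fructan (Per2, 0.75). Without dim genes, 9 of the 10 clock genes (all but Per3) and 9412 features remained, so that fewer features were called in every comparison. The cause of these shifts was not tested beyond this.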

Other observations

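A clock index per mouse, the mean of the centred log2 values of Per1, Per2, Per3, Nr1d1/Thra, Nr1d2 and Dbp/Sphk2 minus that of Arntl, Clock and Npas2, ranged from -0.60 in germ-free replicate 3 on water to 0.58 in germ-free replicate 2 on long-chain β2→1-fructan. Conventional replicate 4 on long-chain β2→1-fructan was next to the highest at 0.56, and germ-free replicate 1 on water next to the lowest at -0.49. The index is a description with no test. Without the shared probe sets of Nr1d1/Thra and Dbp/Sphk2 its extremes were other mice, germ-free replicate 1 on water at -0.47 and conventional replicate 4 on long-chain β2→1-fructan at 0.41, and the former extremes had -0.28 and 0.26.

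The gene whose deviations from the group means were most opposite to Nr1d2 among 18822 features was Hoxc8 (r = -0.94 over 24 mice), a homeobox gene, followed by Itgb1bp2 (-0.86) and Siah2 (-0.84). Hoxc8 was also the most opposite to Nr1d1/Thra (-0.86). These genes were chosen after their values were seen, and the mice farthest from their group mean in Nr1d1/Thra weigh most in such values.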
